A study of Homo sapiens with 5 samples.

Results

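The kinase CDK1 and its partner B-type and A-type cyclins drive cells from G2 into mitosis. WEE1 in the nucleus and PKMYT1 (also called MYT1) at the endoplasmic reticulum and Golgi membranes hold CDK1 inactive by phosphorylating it, and the CDC25 phosphatases remove those phosphates. CHEK1, the kinase that is switched on by ATR when replication stalls or DNA is damaged, restrains the CDC25 phosphatases and so delays mitosis. The 10 genes of this switch, chosen by these roles, were *WEE1*, *PKMYT1*, *CHEK1*, *CDC25A*, *CDC25B*, *CDC25C*, *CDK1*, *CCNB1*, *CCNB2* and *CCNA2*, and all 10 were among the 27328 genes of the count table. Much of the switch is set by phosphorylation and protein turnover, which mRNA counts do not measure.

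The libraries came from TF-1, a human cell line from an acute myeloid leukemia that carries progenitor features and was grown with GM-CSF. Cells had been transduced with a lentivirus carrying Cas9, GFP and 1 single guide RNA. The control group held 2 pools with sgCtrl, which targets the *Renilla luciferase* gene, and the knockout group held 3 pools, each with its own guide against *MTSS1* (sgMTSS1_1, sgMTSS1_2 and sgMTSS1_3), a gene for an actin- and membrane-binding protein. Each pool mixed 4 single-cell clones, which were cultured together before their RNA was extracted, so that a knockout pool differs from another in its guide as well as in its clones, and the controls share 1 guide. A further control pool and a pool with another *MTSS1* guide, which the study left out after an outlier test, were not analysed here. The p-values measure the spread between these 5 pools.

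The control libraries held 2849979 and 3408827 counts and the knockout libraries 5442639 to 8854899, so every knockout library was deeper than both controls, and depth and genotype cannot be told apart. The share of counts from mitochondrial genes was 13.9% and 8.63% in the controls and 6.71% to 7.44% in the knockout pools. *MTSS1* itself stood at 204 and 87.9 CPM in the controls and at 104, 139 and 49.9 CPM in knockout pools 1, 2 and 3. These groups overlapped (log2-fold change -0.58, 95% interval -1.64 to 0.47, adjusted p = 0.494 by the quasi-likelihood test of edgeR after Benjamini-Hochberg correction). The sources used here place the cut in the first exon for sgMTSS1_1 and sgMTSS1_2 and give no position for sgMTSS1_3. Reads from the 3′ end of the mRNA lie outside that exon and check nothing about the labels of knockout pools 1 and 2. The 3′ end of *MTSS1* is also covered by *NDUFB9* on the opposite strand, which held 1044 and 708 reads in the controls and 6192, 3181 and 3576 in the knockout pools. The progenitor markers were present. Their summed level was 2461 and 2281 CPM in the controls and 2549 to 3070 CPM in the knockout pools. These sums were all higher in the knockout pools, as for 22.2% of single tested genes. Scaled by library totals alone, they were 2761 and 2246 against 2673, 2594 and 2848, which overlapped. Of the 12 markers, 0 were called by edgeR, against 5.18% of all tested genes. At an unadjusted p under 0.05 by edgeR, 2 of 12 were higher and 0 lower, against 14.1% and 9.23% of all tested genes.

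Levels are given in CPM, read counts relative to the total of the library, scaled with TMM factors, a correction for differences in RNA composition between libraries. The libraries were made with a protocol that reads the 3′ end of each mRNA once, so levels of different genes can be set side by side without dividing by length. A gene was called differentially expressed when its adjusted p was under 0.05 and its log2-fold change, knockout over control, was beyond 1 in either direction. Of 14391 genes tested, 745 (5.18%) were called, 600 higher (4.17%) and 145 lower (1.01%) in the knockout pools. The same 745 passed on the adjusted p alone, so no gene with a log2-fold change within 1 passed. Not passing therefore says little about changes of that size.

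None of the 10 genes was called at these thresholds (0 of 10 by edgeR's quasi-likelihood test), and 3 of 10 had an unadjusted p under 0.05, a mark that 23.3% of all tested genes reached. Of these 3, *CDC25A* and *CDC25C* were higher, as were 14.1% of all tested genes at that mark, and *PKMYT1* was lower, as were 9.23%. *PKMYT1* was tested only through its level in the controls, so its place among these 3, and in the count of lower genes and the median given next, supports nothing. DESeq2 called 1 of the 10, *CDC25A*, and limma-voom called 0. All 3 knockout pools lay above both controls for *CDC25A*, *CDC25C* and *CCNB2*, as for 22.2% of all tested genes. They lay below both controls for *WEE1*, *PKMYT1* and *CHEK1*, as for 19.2% of all tested genes. The other 4 genes, *CDK1*, *CCNB1*, *CCNA2* and *CDC25B*, overlapped between the groups. The median log2-fold change was -0.13 over the 10 genes and -0.03 over all tested genes, so the list as a whole did not stand to one side.

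**Figure D1:**
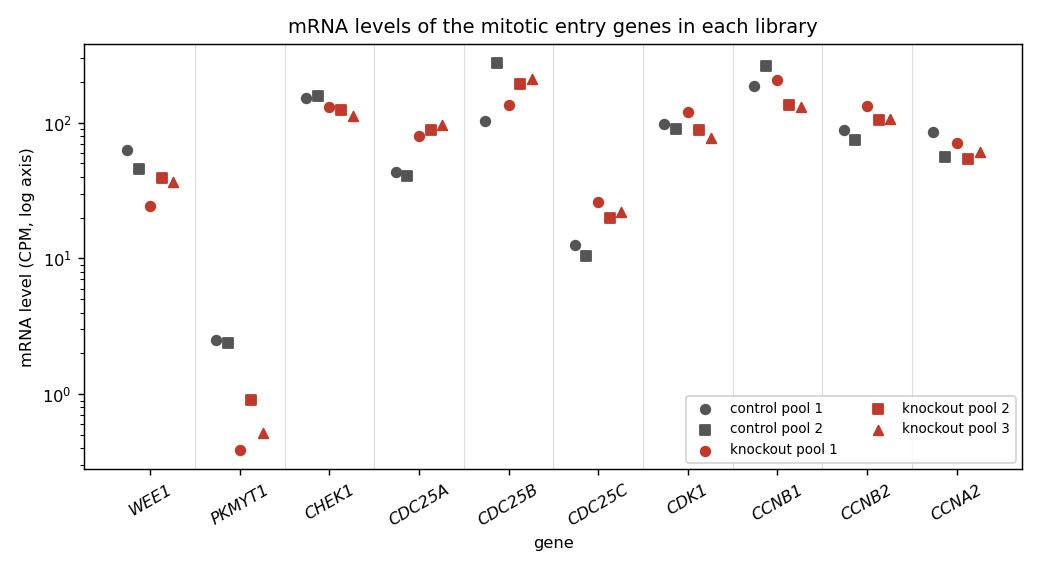
Level of each gene of the switch in every library, in CPM on a log axis, with grey points for the 2 control pools and red points for the 3 knockout pools. *CDC25A*, *CDC25C* and *CCNB2* have all red points above both grey points, *WEE1*, *PKMYT1* and *CHEK1* have all red points below them, and the other 4 genes overlap.

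*WEE1*, the nuclear kinase that phosphorylates CDK1 on a tyrosine, lies on chromosome 11 (GRCh38, chr11:9573670-9593457, plus strand). By immunoblot, the study reported raised WEE1 protein and raised phosphorylated CDK1 in TF-1 *MTSS1* knockout clones beside control clones. Those are protein levels in single clones, and the values here are mRNA levels in pools. Control pools 1 and 2 held the *WEE1* mRNA at 62.8 and 45.6 CPM, and knockout pools 1, 2 and 3 held it at 24.1, 38.8 and 36.7 CPM. Every knockout value was under the lower control value, and knockout pool 1 stood furthest away, at 0.639 times the mean of the other two knockout pools. The mean was 54.2 ± 12.2 CPM (SD, n = 2) in the controls and 33.2 ± 7.94 CPM (SD, n = 3) in the knockout pools, 0.612 times the control. The log2-fold change was -0.71 with a 95% interval of -1.44 to 0.02, and it did not pass the test (adjusted p = 0.228 by edgeR, 0.162 to 0.490 over the 13 alternative settings).

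*PKMYT1*, the membrane-bound relative of *WEE1* that adds inhibitory phosphates to both the threonine and the tyrosine of CDK1, was barely detected. It lies on chromosome 16 (chr16:2968024-2980479, minus strand). The libraries held 8 and 8 reads of it in the controls and 3, 5 and 3 in the knockout pools, or 2.50 and 2.38 CPM against 0.389, 0.903 and 0.522 CPM. All knockout values were lower, but the gene entered the test only because both controls reached the filter of 1.84 CPM, which no knockout pool did, so a gene at this level could be tested only with a difference. The summed reads were 16 in the controls and 11 in the deeper knockout libraries. Their ratio of control over knockout was 4.22 (exact 95% counting interval 1.84 to 10.05). That interval leaves out the spread between pools and the effect of the filter. The log2-fold change of *PKMYT1*, -2.01 (95% interval -3.47 to -0.54), had an unadjusted p of 0.0126 and an adjusted p of 0.106 by edgeR (0.102 to 0.259 over the alternatives that gave one). DESeq2 gave no adjusted p for it.

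The CDC25 phosphatases did not move alike. *CDC25A* acts from the start of S phase onwards as well as at mitotic entry. It stood at 43.5 and 40.2 CPM in the controls and at 80.3, 88.6 and 95.3 CPM in knockout pools 1, 2 and 3. The groups were far apart beside their spread, 41.8 ± 2.28 CPM (SD, n = 2) against 88.1 ± 7.54 CPM (SD, n = 3), a 2.104-fold higher mean. With a log2-fold change of 1.07 (95% interval 0.43 to 1.72) its adjusted p of 0.0618 by edgeR missed the threshold. It passed in 3 of 13 alternatives, with DESeq2 (adjusted p = 0.0207), with a filter of at least 10 counts in every library (0.0485) and with no filter (0.0388), and over all alternatives the adjusted p ranged from 0.0207 to 0.199.

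*CDC25C*, the phosphatase that acts on CDK1 with cyclin B at mitotic entry, was the least abundant of the family, at 12.5 and 10.4 CPM in the controls and 25.8, 19.7 and 22.1 CPM in the knockout pools. Its knockout values were all above the controls, with a 1.97-fold higher mean and a log2-fold change of 0.97 (95% interval 0.22 to 1.73). Its adjusted p was 0.123 by edgeR and 0.101 to 0.274 over the alternatives, so it did not pass in any of them. *CDC25B*, which starts the activation of CDK1 at the centrosomes in late G2, was the most abundant of the family and the least steady, at 103 and 273 CPM in the controls and 135, 192 and 209 CPM in the knockout pools. Control pool 2 held 2.65 times the level of control pool 1, and the knockout pools lay between these. Its log2-fold change was -0.07 (95% interval -1.01 to 0.87, adjusted p = 0.939 by edgeR). The estimate became 0.82 without control pool 2, 0.08 without knockout pool 1, 0.07 with limma-voom and 0.079 with no filter. Its direction was therefore not settled.

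*CDK1*, the kinase on which the switch acts (chr10:60778331-60794852, plus strand), stood at 98.2 and 89.1 CPM in the controls and at 119, 88.5 and 76.7 CPM in knockout pools 1, 2 and 3. Its mean was 93.6 ± 6.42 CPM (SD, n = 2) in the controls and 94.8 ± 21.9 CPM (SD, n = 3) in the knockout pools, and the highest and the lowest value both came from knockout pools. The log2-fold change was 0.02 with a 95% interval of -0.66 to 0.70 (adjusted p = 0.980 by edgeR, 0.778 to 0.994 over the alternatives), and the interval holds changes in either direction.

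The B-type cyclins, the activating partners of CDK1 in mitosis, had estimates of opposite sign. *CCNB1*, which encodes the cyclin that moves into the nucleus at mitotic entry, stood at 185 and 261 CPM in the controls and at 204, 135 and 130 CPM in the knockout pools, with knockout pool 1 inside the control range and the other two below it. *CCNB2*, whose product resides largely at the Golgi, stood at 88.2 and 74.5 CPM in the controls and at 133, 105 and 106 CPM in the knockout pools, all above the controls. Neither passed the test. With libraries scaled by their totals alone, the knockout values of *CCNB1* were all below the controls, and no other gene of the switch changed between overlapping and separate groups. The log2-fold change of *CCNB1* was -0.51 (95% interval -1.24 to 0.22, adjusted p = 0.388 by edgeR, 0.200 to 0.747 over the alternatives). That of *CCNB2* was 0.49 (95% interval -0.15 to 1.14, adjusted p = 0.339 by edgeR, 0.239 to 0.574 over the alternatives).

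*CCNA2*, the cyclin that partners first CDK2 in S phase and then CDK1 in G2, stood at 85.7 and 55.4 CPM in the controls and at 70.8, 53.6 and 61.2 CPM in the knockout pools. Its groups shared part of their range, and the log2-fold change was -0.19 (95% interval -0.88 to 0.51, adjusted p = 0.765 by edgeR, 0.418 to 0.974 over the alternatives). Without control pool 1 the estimate changed sign, to 0.17.

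*CHEK1*, on chromosome 11 as *WEE1* is (chr11:125625163-125676255, plus strand), stood at 152 and 157 CPM in the controls and at 131, 124 and 112 CPM in the knockout pools. The controls were close together, at 155 ± 3.59 CPM (SD, n = 2), and every knockout pool was below them, at 123 ± 9.74 CPM (SD, n = 3). This small separation did not pass the test, with a log2-fold change of -0.34 (95% interval -0.95 to 0.28, adjusted p = 0.497 by edgeR, 0.394 to 0.837 over the alternatives).

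**Figure D2:**
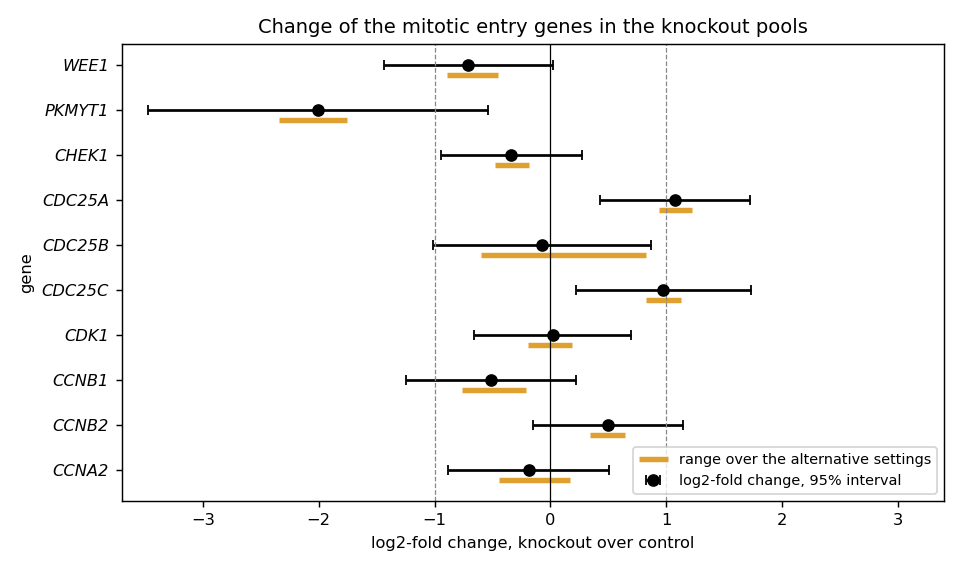
Log2-fold change of each gene of the switch, knockout over control, with its 95% interval from edgeR (black) and the range of the estimate over the alternative settings (orange). Dashed lines mark -1 and 1, and the intervals of *CDC25A* (0.43 to 1.72), *CDC25C* (0.22 to 1.73) and *PKMYT1* (-3.47 to -0.54) are those that leave out 0. *PKMYT1* was tested only through its level in the controls, so its interval supports nothing.

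In the order of mean levels, the control pools ran from *CCNB1* (223 CPM) through *CDC25B* (188), *CHEK1* (155), *CDK1* (93.6), *CCNB2* (81.3), *CCNA2* (70.5), *WEE1* (54.2), *CDC25A* (41.8) and *CDC25C* (11.5) to *PKMYT1* (2.44). The ranges of the 2 control pools overlapped between *CCNB1* and *CDC25B*, *CDC25B* and *CHEK1*, *CCNB2* and *CCNA2*, and *CCNA2* and *WEE1*, and the other neighbours were separate. In the knockout pools *CDC25A* (88.1 CPM) stood above *CCNA2* (61.9) and *WEE1* (33.2), with separate ranges, and *CCNB2* (115) stood above *CDK1* (94.8), with overlapping ranges. *WEE1* was above *CDC25A* in both control pools and below it in all 3 knockout pools.

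A ratio of reads within a library does not depend on how libraries are scaled to each other. The reads of the inhibitory kinases, *WEE1* and *PKMYT1*, over those of the *CDC25* genes together gave 0.411 for control pool 1, 0.148 for control pool 2, and 0.102, 0.132 and 0.114 for knockout pools 1, 2 and 3. The groups did not overlap, but control pool 2 stood nearer to the knockout pools than to control pool 1. The difference of the mean log2 ratio was -1.10 (pooled SD 0.62). It was -0.36 without control pool 1 and -1.84 without control pool 2, the pools that differed most in *CDC25B*. The ratio of *WEE1* to *CDK1* was 0.640 and 0.512 in the controls and 0.203, 0.439 and 0.478 in the knockout pools, with knockout pool 1 far under the rest.

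The next 4 ratios were chosen after the values of their genes had been seen, and they are given as a description. Reads of *WEE1* over *CDC25A* were 1.45 and 1.13 in the controls and 0.300, 0.438 and 0.385 in the knockout pools, 3.46-fold lower (pooled SD 0.27 on the log2 scale). Reads of *WEE1* over *CDC25C* were 5.03 and 4.37 in the controls and 0.935, 1.97 and 1.66 in the knockout pools. In both ratios every knockout pool was below every control, which follows from the separate levels of the single genes and adds no support. Reads of *CCNB1* over *CCNB2* were 2.096 and 3.51 in the controls and 1.54, 1.28 and 1.23 in the knockout pools, again without overlap. Reads of *CDK1* over both B-type cyclins together were 0.360 and 0.265 in the controls and 0.353, 0.368 and 0.325 in the knockout pools, and these overlapped.

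**Figure D3:**
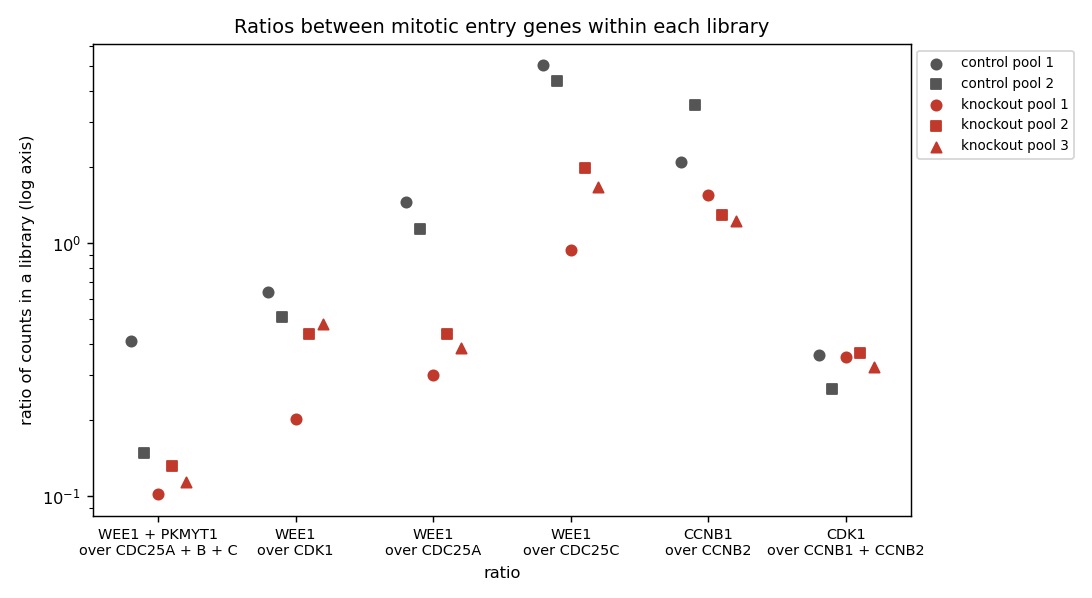
Ratios of read counts between genes of the switch within each library, on a log axis, with grey points for control pools and red points for knockout pools. The red points of *WEE1* over *CDC25A* (0.300 to 0.438) lie below both grey points (1.13 and 1.45), and those of *CDK1* over the B-type cyclins (0.325 to 0.368) overlap the grey points (0.265 and 0.360).

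The knockout pools were not alike among themselves. For 10 of 10 genes of the switch, knockout pool 1 lay outside the range of knockout pools 2 and 3, which also held for 77.6% of all tested genes. It was above both for 6 genes, among them *CCNB1* (1.54 times their mean) and *CDK1* (1.44 times), and below both for 4, among them *PKMYT1* (0.546 times) and *WEE1* (0.639 times). Knockout pool 1 was also the most deeply sequenced library. Whether its guide, its clones or its depth moved with these levels was not tested.

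Some of the genes overlap others, and whether reads were assigned by strand is not given in the sources used here. The 3′ end of *PKMYT1* is covered by *KREMEN2*, that of *CHEK1* by *ACRV1* and that of *CCNA2* by *EXOSC9*, each on the opposite strand, and the 3′ end of *CCNB2* lies inside an unnamed long noncoding RNA on its own strand (annotation of GENCODE 44). Without strand, reads from these places cannot be told apart between the opposite partners, and for *CCNB2* strand would not separate them either, so the counts of these 4 genes are uncertain to that extent. *KREMEN2* itself held at most 2 reads in any library and *ACRV1* between 39 and 109. *EXOSC9* held 165 and 219 reads in the controls and 904, 338 and 315 in the knockout pools, more than *CCNA2* in control pool 2 and in knockout pools 1 and 2. *CDC25A* holds a processed pseudogene, *NDUFB1P1*, on its opposite strand away from its 3′ end (14 and 2 reads in the controls and 1331, 133 and 176 in the knockout pools, counted apart from *CDC25A*). *CDK1*, *CCNB1* and *CDC25B* overlap no other annotated gene. Elsewhere the annotation names 2 pseudogenes of *WEE1* and 1 of *CCNB2*. Reads without a unique position had been removed before counting, and the effect on the levels of these genes was not tested.

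Many genes of the G2 and M phases carry a CHR element, bound by the MuvB complex, beside NF-Y boxes, and many genes of the G1 to S transition carry E2F sites. Promoter windows from 250 bases before to 50 after an annotated start were taken from RefSeq (GRCh38.p14), which gave 17 windows for 8 of the 10 genes, some of them overlapping alternative starts. *WEE1* and *PKMYT1* had no entry. Each of 35116 windows of the same length was searched on both strands for TTTGAA (CHR element), CCAAT (NF-Y box), and TTTCCCGC or TTTGGCGC (E2F sites). Other forms of the CHR element and the E2F site were not searched for, so a window without a match may still hold one. The sequences below are the 200 bases before the first start of *CDC25A* (chr3:48188418-48188617, minus strand) and *CCNB2* (chr15:59104946-59105145, plus strand), which stood higher in every knockout pool, and of *CDK1* (chr10:60778131-60778330, plus strand) and *CCNB1* (chr5:69166950-69167149, plus strand), which overlapped between the groups. Capitals mark the motif matches.
CDC25A: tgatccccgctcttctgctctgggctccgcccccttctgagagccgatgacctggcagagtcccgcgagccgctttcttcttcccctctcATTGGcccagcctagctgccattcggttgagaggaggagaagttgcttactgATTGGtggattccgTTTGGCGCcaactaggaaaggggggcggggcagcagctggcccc
CCNB2: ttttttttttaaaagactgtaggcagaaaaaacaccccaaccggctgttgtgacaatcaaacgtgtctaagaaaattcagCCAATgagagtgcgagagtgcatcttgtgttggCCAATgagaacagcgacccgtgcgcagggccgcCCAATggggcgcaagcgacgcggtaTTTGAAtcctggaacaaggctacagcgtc
CDK1: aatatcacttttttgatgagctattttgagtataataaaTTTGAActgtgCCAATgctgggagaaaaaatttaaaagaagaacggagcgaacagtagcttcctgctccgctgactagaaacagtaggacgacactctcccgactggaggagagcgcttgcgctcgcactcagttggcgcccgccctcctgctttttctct
CCNB1: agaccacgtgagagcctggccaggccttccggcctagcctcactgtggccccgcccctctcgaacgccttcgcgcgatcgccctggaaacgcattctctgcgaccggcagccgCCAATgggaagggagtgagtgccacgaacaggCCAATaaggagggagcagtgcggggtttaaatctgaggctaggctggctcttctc

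In these stretches *CDC25A* held the E2F letters TTTGGCGC, 44 bases before its start, and reversed NF-Y boxes at 110 and 58 bases. *CCNB2* held the CHR letters 29 bases before its start, below NF-Y boxes at 120, 87 and 54 bases. *CDK1* held a CHR match 161 bases and an NF-Y box 150 bases before its first start, and *CCNB1* held NF-Y boxes at 87 and 55 bases with no TTTGAA. The second start of *CDK1*, not printed, had CHR matches 69 and 13 bases before it and a reversed one 10 bases after. Reversed NF-Y boxes lay 78 and 46 bases before that start. Over all windows, TTTGAA was found for *CDK1*, *CCNB2* and *CDC25C* (5 of 17 windows, against 15.2% of all 35116). CCAAT was found for all 8 genes (13 of 17 windows, against 34.6%). TTTGGCGC was found only for *CDC25A* (1 of 17 windows, against 0.652%), and TTTCCCGC in 0 of the 17 (against 1.63%). Such matches describe the letters of these windows and do not show that a factor binds there. *CCNB2* and *CDK1*, which both hold the CHR letters and an NF-Y box before their first start, had log2-fold changes of 0.49 and 0.02.

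**Figure D4:**
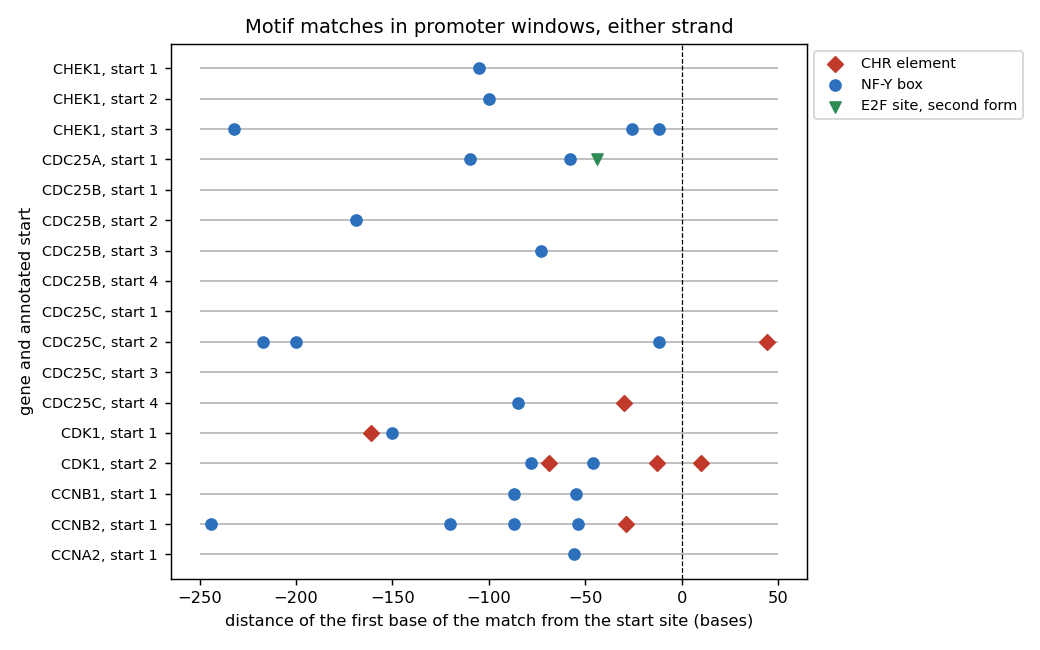
Position of each motif match, on either strand, from 250 bases before to 50 bases after each annotated start (dashed line) of the 8 genes with a promoter window, 1 line per start. Matches to TTTGAA (CHR, red) are in windows of *CDC25C*, *CDK1* and *CCNB2*, and the match to TTTGGCGC (E2F, green) is in that of *CDC25A*. Other forms of these motifs were not searched for.

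Around the switch, other regulators of mitotic entry were read from lists of known members. Of all tested genes, 4.17% were called higher and 1.01% lower, and 14.1% and 9.23% had an unadjusted p under 0.05. These shares stand beside the counts of each list below. Of the 15 genes that feed into the switch, such as the Polo and Aurora kinases, the Greatwall pathway and the CDK-activating kinase, 2 were called higher and 0 lower (4 and 1 at an unadjusted p under 0.05, median log2-fold change 0.19). The 1 lower gene at that mark was *BORA*, named after its values were seen, which reached the filter level only in the controls, with 16 and 9 reads there and 11, 4 and 5 in the knockout pools. *CKS1B*, a small subunit that docks CDK complexes on their phosphorylated substrates, was at 6.25 and 5.36 CPM in the controls and rose to 51.0, 28.2 and 28.2 CPM in knockout pools 1, 2 and 3 (log2-fold change 2.62, SE 0.43, adjusted p = 0.0138 by edgeR, 4.98e-06 to 0.0540 over the alternatives). *ENSA*, a Greatwall substrate that inhibits the phosphatase PP2A-B55, was at 50.3 and 87.3 CPM in the controls and rose to 478, 263 and 249.5 CPM (log2-fold change 2.26, SE 0.43, adjusted p = 0.0218 by edgeR, 3.58e-06 to 0.0673 over the alternatives). For both genes knockout pool 1 held the highest level. The kinase *PLK1*, which phosphorylates WEE1 and the CDC25 phosphatases and was picked after its value was seen, had a log2-fold change of 1.52 that missed the threshold (adjusted p = 0.0520 by edgeR, 0.00548 to 0.153 over the alternatives, called in 5 of 13 of them, DESeq2 among these), with 22.5 and 14.6 CPM in the controls and 37.1, 53.8 and 68.7 CPM in the knockout pools.

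Of the genes of the ATR and ATM checkpoint that lies upstream of *CHEK1*, 25 of 27 were tested, 1 was called higher and 0 lower (3 and 1 at an unadjusted p under 0.05, median log2-fold change 0.08). The called gene was *RPA1*, the large subunit of the protein that coats single-stranded DNA, which rose from 40.6 and 29.5 CPM in the controls to 93.3, 82.5 and 90.8 CPM in the knockout pools (log2-fold change 1.34, SE 0.30, adjusted p = 0.0383 by edgeR, 0.00289 to 0.114 over the alternatives). It kept its call in 8 of 13 alternatives.

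The SCF and APC/C ubiquitin ligases degrade WEE1, CDC25A and the cyclins. Of their genes 25 of 26 were tested, and edgeR called 0, with 1 higher and 4 lower at an unadjusted p under 0.05 (median log2-fold change -0.02). The genes with the smallest p were the APC/C subunits *ANAPC2* (log2-fold change -1.66, adjusted p = 0.108 by edgeR, 0.0686 to 0.265 over the alternatives) and *ANAPC7* (log2-fold change -0.79, adjusted p = 0.143 by edgeR, 0.0880 to 0.412 over the alternatives). *ANAPC2* reached the filter level only in the controls, at 3.75 and 4.17 CPM, so it too was tested only through its level in the controls.

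Of the 6 genes for 14-3-3 proteins, which hold phosphorylated CDC25 in the cytoplasm, edgeR called 0, with 1 higher and 0 lower at an unadjusted p under 0.05 (median log2-fold change -0.08). *YWHAE* was at 114 and 77.8 CPM in the controls and 249.4, 175 and 175 CPM in the knockout pools, with a log2-fold change of 1.06 (adjusted p = 0.0956 by edgeR, 0.0313 to 0.218 over the alternatives, past the threshold with DESeq2). *YWHAG* had a log2-fold change of -0.57 (adjusted p = 0.255 by edgeR, 0.169 to 0.601 over the alternatives).

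Of the transcription factors and cofactors that control cell cycle genes, 21 of 23 were tested, 1 was called higher and 1 lower (3 and 2 at an unadjusted p under 0.05, median log2-fold change 0.12). *TFDP1*, the common dimer partner of the E2F factors, rose from 69.4 and 59.9 CPM in the controls to 191, 174 and 157 CPM in the knockout pools (log2-fold change 1.43, SE 0.30, adjusted p = 0.0276 by edgeR, 0.000463 to 0.0814 over the alternatives). *RBBP4*, a histone-binding subunit of MuvB and of several chromatin complexes, fell from 227 and 250 CPM to 72.9, 93.7 and 72.9 CPM (log2-fold change -1.58, SE 0.28, adjusted p = 0.0186 by edgeR, 0.000153 to 0.0987 over the alternatives). Both genes had well-separated groups, and both lost their call when any 1 knockout pool was left out.

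**Figure D5:**
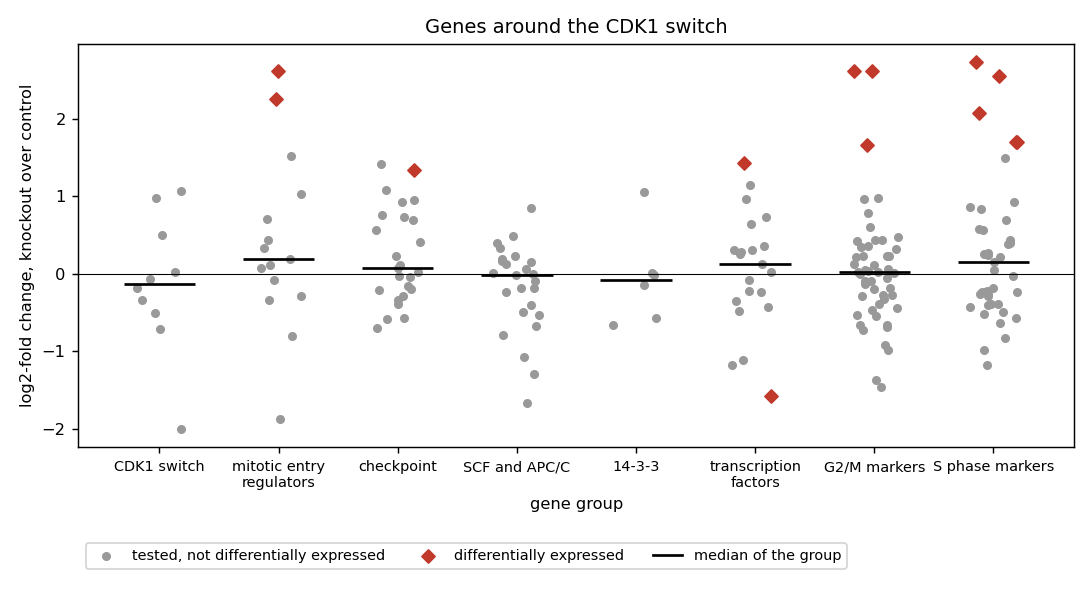
Log2-fold change, knockout over control, of every tested gene of the switch and of each surrounding list, with called genes in red and the median of each list as a bar. The medians lie between -0.13 (the 10 genes of the switch) and 0.19 (other regulators of mitotic entry). Called were 0 of 10 genes of the switch, 2 of 15 other regulators and 1 of 25 checkpoint genes. They were 0 of 25 for the SCF and APC/C and 0 of 6 for 14-3-3. Of 21 transcription factors and cofactors, 1 was called higher and 1 lower. The markers had 3 of 50 for G2 and M and 5 of 41 for S phase. Of all tested genes, 5.18% were called.

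Levels of cell cycle mRNAs follow the share of cells in each phase as well as regulation within a phase, and in bulk RNA fewer cells of a phase and less RNA per cell cannot be told apart. The summed level of 51 G2 and M phase markers was 11705 and 12651 CPM in the controls and 12119, 11949 and 10271 CPM in the knockout pools, which overlapped. Scaled by library totals alone, the same sums were 13136 and 12453 against 10552, 12161 and 10176, all lower in the knockout pools. Of these markers 50 were tested, 3 were called higher and 0 lower, against 4.17% and 1.01% of all tested genes. At an unadjusted p under 0.05 they were 5 and 5, against 14.1% and 9.23%, and the median log2-fold change was 0.02. Of the 5 lower, *NUSAP1* reached the filter level only in the controls. The called genes were *CKS1B*, given above, *TUBB4B*, a beta-tubulin (log2-fold change 2.61, SE 0.44, adjusted p = 0.0155 by edgeR, 8.38e-07 to 0.0612 over the alternatives), and *BIRC5*, which encodes the chromosomal passenger protein survivin (log2-fold change 1.66, SE 0.38, adjusted p = 0.0380 by edgeR, 0.000363 to 0.113 over the alternatives).

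The summed level of 43 S phase markers was 3947 and 3979 CPM in the controls and 4958, 4722 and 4388 CPM in the knockout pools, all higher, as for 22.2% of single tested genes. Scaled by library totals alone, the sums were 4429 and 3917 against 4317, 4805 and 4347, which overlapped. Of the 41 markers tested, 5 were called higher and 0 lower, against 4.17% and 1.01% of all tested genes. At an unadjusted p under 0.05 they were 9 and 3, against 14.1% and 9.23%, and the median log2-fold change was 0.15. *MCM4* and *MCM5*, picked after their values were seen, had estimates of -0.84 and -0.99 that did not pass. The 3 largest changes were those of *FEN1*, the flap endonuclease of lagging-strand synthesis (log2-fold change 2.73, SE 0.49, adjusted p = 0.0192 by edgeR, 3.26e-07 to 0.0746 over the alternatives), *PRIM1*, the catalytic subunit of primase (2.56, SE 0.58, adjusted p = 0.0385, 0.000103 to 0.110), and *RRM1*, the large subunit of ribonucleotide reductase (2.08, SE 0.37, adjusted p = 0.0182, 1.05e-06 to 0.0677). With TMM factors the S phase sum moved in the direction of *CDC25A* and *CDC25C*, and its part in their levels was not tested.

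Each gene named above as called, from *CKS1B* to *RRM1*, lost its call when knockout pool 1, the deepest library, was left out. The adjusted p-values were then 0.0540 to 0.113 by edgeR. Over all tested genes, the number called fell in that fit from 745 to 111. Losing a call there was therefore usual and says little about these genes in particular. *RPA1*, *RBBP4*, *TFDP1*, *BIRC5* and *PRIM1* also lost it without either other knockout pool. *ENSA*, *TUBB4B* and *RRM1* lost it without 1 of those pools, and *CKS1B* and *FEN1* kept it.

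Markers of other lineages bear on what the pools held. The summed level of 10 erythroid genes was 3847 and 6784 CPM in the controls and 2521, 1791 and 3070 CPM in the knockout pools, all lower, as for 19.2% of single tested genes. Of the 10, 1 was called lower, against 1.01% of all tested genes. The called gene was *HBA1* (log2-fold change -1.73), named after its value was seen and near-identical to *HBA2*, so that reads may be split between them. TF-1 cells can make globin themselves, and the part of the erythroid difference in the levels of the switch was not tested. Of the other lists, 6 of 10 myeloid and 5 of 7 lymphoid markers were in the table, at low levels. The myeloid sum was 9.38 and 11.6 CPM in the controls and 17.3, 14.6 and 12.7 CPM in the knockout pools. It was higher in every knockout pool, as for 22.2% of single tested genes. The lymphoid sum was 10.63 and 15.2 CPM in the controls and 7.39, 5.24 and 10.61 CPM in the knockout pools. It was lower in every knockout pool, as for 19.2% of single tested genes. *CD14* and *CSF3R* were under 1 CPM in every library. Of the stromal, epithelial and endothelial markers 5 of 7 were in the table, and their sum (117 and 145 CPM in the controls, 200 to 240 CPM in the knockout pools) was nearly all *PECAM1*, with *COL1A1*, *COL1A2* and *EPCAM* under 1 CPM.

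The genes whose pattern over the 5 libraries was nearest to that of *WEE1*, by the root mean square difference of log2 CPM centred on each gene's mean, were *ARID2* (0.0275), *SPEN* (0.0374) and *NLK* (0.0392). The nearest of the other genes of the switch was *CHEK1*, at 0.378. For *CDK1* they were *PTTG1* (0.0226), *DNAJC28* (0.0293) and *POLD3* (0.0297), and the nearest of the switch was again *CHEK1*, at 0.222. With 5 libraries and 14391 genes, close matches describe these pools alone.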

How the data were processed

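RNA of 5 pools of single-cell clones was sequenced as 3′ mRNA tags. Per the study's methods and the submitters' processing notes, the authors checked reads with FastQC 0.11.9, aligned them to GRCh38 with HISAT2 2.1.0, removed reads without a unique position with SAMtools 1.10 and tested with DESeq2. The counter, its annotation and its use of strand are not given in the sources used here. The deposited table holds raw counts per Ensembl gene for the 5 libraries (27328 genes, of which 27211 were matched to a symbol).

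These counts were tested with edgeR 4.0.16 (quasi-likelihood test, TMM factors, condition alone, Benjamini-Hochberg adjustment over all 14391 genes left by a minimum count of 10, about 1.84 CPM, in at least 2 libraries) in R 4.3.3. DESeq2 1.42.0 and limma-voom 3.58.1 were alternatives, beside other scalings, filters, equal depth, a block and leaving out each library. The procedure was tested on simulated data, in which edgeR called 64.5% of 200 genes changed 4-fold. Smaller changes, such as the 2.10-fold one of *CDC25A*, were not simulated, so that share does not cover them. A count of 0 allows up to 3 counts, or 0.389 to 0.938 CPM by library, and intervals on counts cover counting error only.

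The 10 genes, the lists and the comparisons were chosen with earlier results of these data known. Named genes were the 10, *MTSS1*, the called genes of each list (at most 4 by size of change, otherwise the 2 with the smallest p) and the 3 nearest in pattern to *WEE1* and *CDK1*. Of the S phase markers, 1 gene that this rule names is not reported here. *LIN37* and *E2F7* of the transcription list were not in the table used here.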

Additional observations from a re-analysis of the deposited data

How the results depend on the processing

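The number of genes called, 745, became 1286 with DESeq2 (1296 on the adjusted p alone) and 1374 with no filter on low counts, and ranged from 111 to 1349 when 1 library was left out (1349 without control pool 1, 111 without knockout pool 1, 347 without knockout pool 2 and 191 without knockout pool 3). Of the 10 genes of the switch, 1, *CDC25A*, was called with DESeq2, with at least 10 counts in every library and with no filter, and 0 were called when any 1 library was left out (range 0 to 0). The sign of the estimate turned for *CDC25B* with limma-voom (0.0697), with no filter (0.079) and among the fits that left out 1 library (-0.60 to 0.82, with 0.82 without control pool 2 and 0.08 without knockout pool 1). It turned for *CDK1* with limma-voom (-0.0072), with library size alone (-0.14), at equal depth (-0.0282) and with 1 library left out (-0.19 to 0.19, with -0.02 without control pool 2 and -0.19 without knockout pool 1). Without control pool 1 it turned for *CCNA2* (0.17, range -0.44 to 0.17) and for *MTSS1* (0.16, range -1.04 to 0.16). The log2 difference in the ratio of inhibitory kinases to *CDC25* genes ranged from -1.84 to -0.36 when 1 library was left out. The median over all tested genes, -0.03, was -0.17 when libraries were scaled by their totals and 0.11 with no filter, and the medians of the lists moved with it. *PKMYT1* gave no value with at least 10 counts in every library or at equal depth.

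The pool numbers 1 and 2 are numbers of guides and pools and pair nothing by design. The differences between pools 1 and 2 had a correlation of 0.17 across genes between the groups, and a fit with these numbers as a block called 1094 genes and 0 of the 10. Depth limits *PKMYT1* most, at 3 to 8 reads a library. The sign of *CDC25B* turned in several alternative settings, so these pools do not settle it.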
